A study of Drosophila melanogaster with 23 samples.

Results

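The comparison described here set midguts in which intestinal stem cells (ISCs) expressed the reprogramming factors OKSM together with the senolytic peptide Sen against midguts in which the same driver expressed a fluorescent protein in their place. Its members are 6 of the 23 RNA-seq libraries of the series, 3 labelled as WT and 3 as carrying both constructs, chosen by their labels and not by any measured value. Of 17714 gene IDs in the files, 9374 had a mean of 10 or more reads over the 12 libraries of the ISC-restricted expression model and were tested. Both groups carried the escargot driver with a UAS-GFP reporter (esgGal4, UAS-GFP) and the temperature-sensitive repressor tubGal80ts. The paper's list of fly lines gives this driver stock with a further construct, UAS-dCas9.VPR, which its list of crosses does not name. WT flies (esgGal4; tubGal80ts > UAS-TdTomato) expressed the red fluorescent protein TdTomato, and OKSM-Sen flies (esgGal4; tubGal80ts > UAS-Sen; UAS-OKSM) expressed Sen and OKSM. OKSM is a single transcript that encodes 4 human reprogramming factors, Oct4, KLF4, Sox2 and Myc, and Sen is an HA-tagged peptide designed to separate FoxO from p53. The study kept flies at 25 °C and expressed the constructs constantly. The sources used here give no age, sex or number of flies per library for these samples, and none of them states whether replicates were separate cohorts, so that p-values measure the spread between these libraries, which may be technical. The libraries of flies with OKSM alone and Sen alone, 3 each, shared the fit and serve as a side comparison.

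The fly midgut is a tube of absorptive and secretory cells that is renewed through adult life by ISCs. An ISC divides to give another ISC and either an enteroblast, which Notch signaling from the ISC directs to become an enterocyte, or a precursor of the hormone-releasing enteroendocrine cells. Enterocytes make the digestive enzymes and take up nutrients, and when they are stressed or damaged they release cytokines of the unpaired family and ligands of the EGF receptor, which drive ISC division. The escargot driver is active in ISCs and enteroblasts only, but RNA was taken from dissected midguts, so each library held the transcripts of all gut cells, with enterocytes in the majority.

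Total expected counts lay between 16926698 and 18974759 in WT and between 16107463 and 18356846 in OKSM-Sen. Spearman correlations over the genes tested were 0.981 to 0.987 between WT replicates, 0.952 to 0.982 between OKSM-Sen replicates and 0.950 to 0.971 between the groups, so that OKSM-Sen replicates differed more among themselves than WT replicates did. OKSM-Sen replicate 2 stood apart from all other libraries of the model on the second principal component, which held 16.9% of the variance. Reads of mitochondrial genes made up 7.85 to 8.27% of counts in WT and 9.27 to 11.8% in OKSM-Sen, and reads of rRNA, snoRNA and snRNA genes 3.82 to 4.23% and 4.95 to 6.52%, and the part of these shifts in the results was not tested. The labels of OKSM-Sen replicate 3 and Sen replicate 3 had been exchanged by the submitters, and the current labels of these relabelled libraries were used. The transcripts of OKSM, Sen and the fluorescent proteins have no entries of their own among the genes counted, so the labels could not be checked on the constructs themselves. In the 12 libraries of the model CG11893 read 1.02, 1.09 and 0.659 CPM (counts per 1000000 counts, scaled by TMM) in OKSM-Sen and 1.14, 1.1 and 0.748 CPM in OKSM, against 89.4, 120.1 and 65.2 CPM in WT and 39.1, 95.4 and 113 CPM in Sen. The spatzle family gene spz4 read 7.45, 6.92 and 8.68 CPM in OKSM-Sen and 6.90, 7.09 and 7.81 CPM in Sen, against 0.318, 0.699 and 0.245 CPM in WT and 0.712, 0.206 and 0.374 CPM in OKSM. Both genes thus split the 12 libraries by a construct that their current labels name. They were picked for their change in a fit that used these labels, so their split is not an independent check of the labels. Since the genotypes differ in the chromosomes that carry the constructs, a difference in genetic background and an effect of the construct cannot be told apart.

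The tissue label names intestinal stem cells, and the markers of ISCs and enteroblasts summed to 133, 101 and 111 CPM in WT and 148, 189 and 168 CPM in OKSM-Sen. Enterocyte markers summed to 34575, 31628 and 48893 CPM in WT and 26525, 40718 and 36313 CPM in OKSM-Sen, far more, as in RNA of a whole midgut. Enteroendocrine markers (655 to 723 CPM in WT, 687 to 876 CPM in OKSM-Sen) and visceral muscle markers (2206 to 2426 CPM and 2332 to 3047 CPM) overlapped between the groups. Copper cell markers summed to 579 to 698 CPM in WT and 443 to 531 CPM in OKSM-Sen without overlap, and so did hemocyte markers, at 176 to 190 CPM and 155 to 170 CPM. Malpighian tubule markers summed to 157 to 187 CPM in WT but to 737, 88.8 and 347 CPM in OKSM-Sen, with the tubule gene Uro at 175, 0.192 and 37.9 CPM, so that these markers differed widely between OKSM-Sen replicates. None of the 6 tubule genes was called in either direction, but 5 were called higher without OKSM-Sen replicate 2, and the part of these cells in other results was not tested. Fat body markers ran from 786 to 1035 CPM in WT and from 785 to 2488 CPM in OKSM-Sen, highest in replicate 3, and none of 7 was called. Of the markers of testis, 13 of 13 had a mean below 10 reads over the 6 libraries and 10 had no read, and 10 of 15 ovary and egg markers were below 10. The 6 ovary and egg markers tested summed to 41.5, 1.65 and 1.78 CPM in WT, most of it in replicate 1. In OKSM-Sen they summed to 4.45, 13.6 and 15.6 CPM. The part of such cells in other results was not tested. In bulk RNA, fewer cells of a type and less RNA per cell cannot be told apart.

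**Figure D1:**
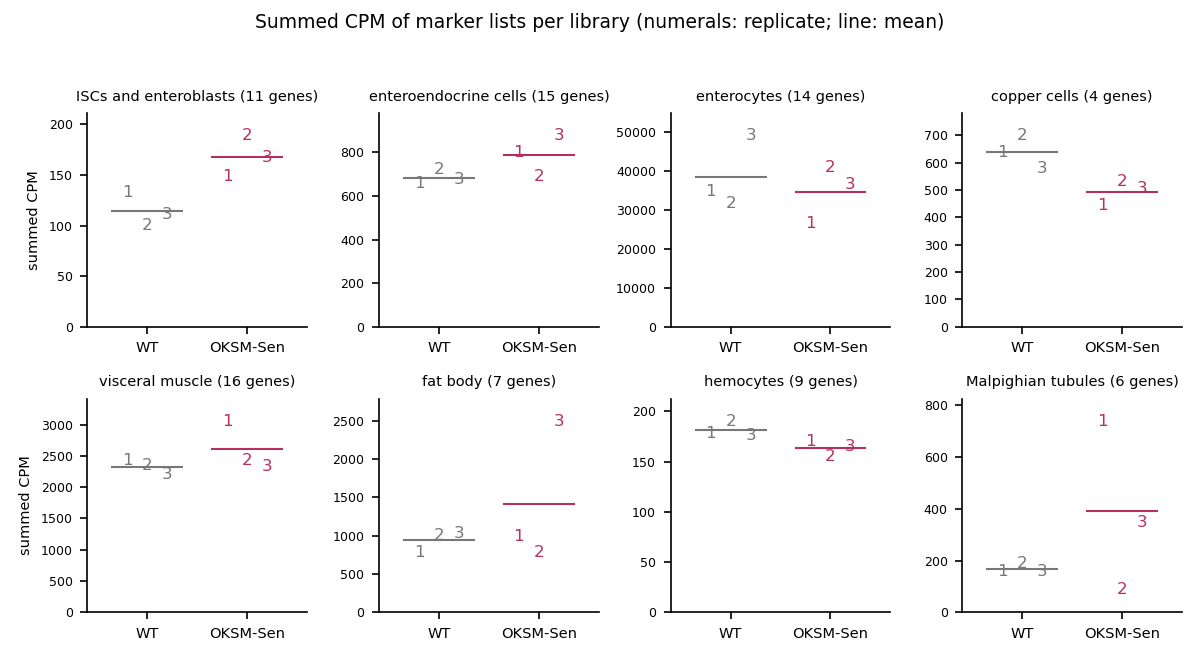
Summed CPM of 8 lists of cell type markers (y axis, own scale in each panel, from 0) in the WT and OKSM-Sen libraries, with a point per replicate, labelled by its number. Markers of ISCs and enteroblasts lie between 101 and 133 CPM in WT and between 148 and 189 CPM in OKSM-Sen, copper cell and hemocyte markers lie lower in OKSM-Sen, and Malpighian tubule markers scatter over the 3 OKSM-Sen replicates.

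Against WT, 2718 of 9374 genes (29.0%) were called at an FDR of 10% by edgeR's quasi-likelihood test, 1475 higher (15.7%) and 1243 lower (13.3%) in OKSM-Sen. Most of these changes were modest. The median log2 fold change, always given as OKSM-Sen over WT, was 0.56 among genes called higher and -0.57 among genes called lower, with 339 genes at 1 or more and 256 at -1 or less, and 0.02 over all genes tested. In 2012 genes (21.5%) all 3 OKSM-Sen libraries lay above all 3 WT libraries, and in 1766 (18.8%) all lay below. The number of calls depended on which library was left out. It was 1905, 1620 and 2887 without WT replicates 1, 2 and 3. Without OKSM-Sen replicates 1, 2 and 3 it was 1980, 2481 (1285 higher and 1196 lower) and 1821. The gene lists below were chosen with earlier results of these data known, so their shares against all genes describe these data only.

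**Figure D2:**
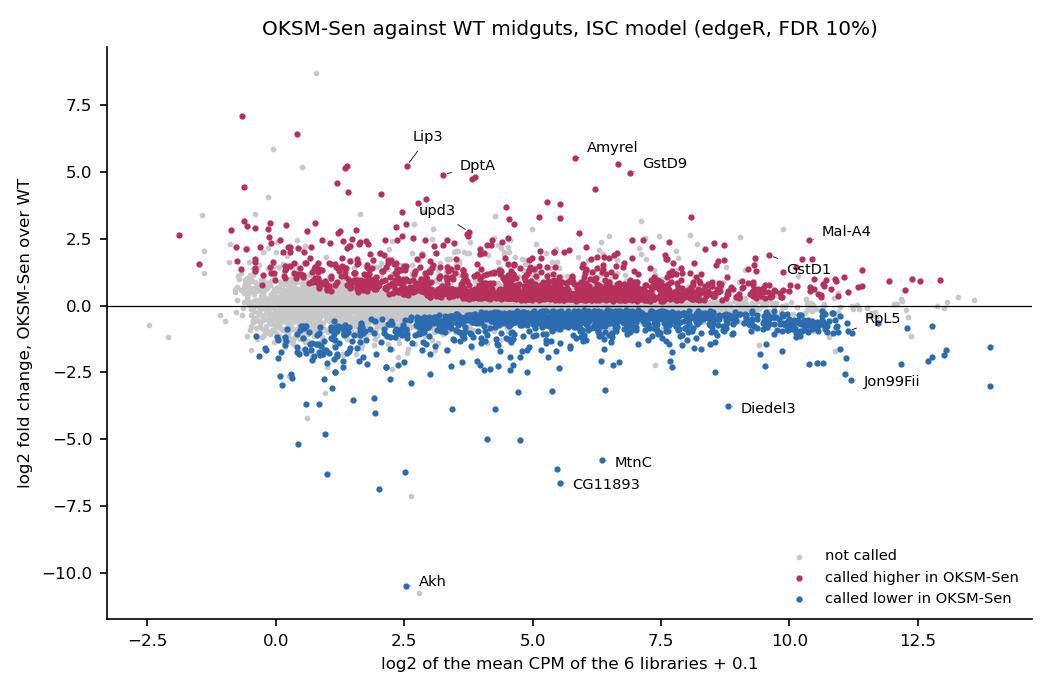
Log2 fold change of OKSM-Sen over WT (y axis) against the log2 of the mean CPM of the 6 libraries plus 0.1 (x axis) of the 9374 genes tested, with the 2718 called genes in color by direction. Amyrel, Lip3, GstD9 and DptA lie high among the genes called higher, and Akh lies lowest of the genes called lower, where the fitted fold change of a gene without reads in OKSM-Sen depends on the prior count.

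**Figure D3:**
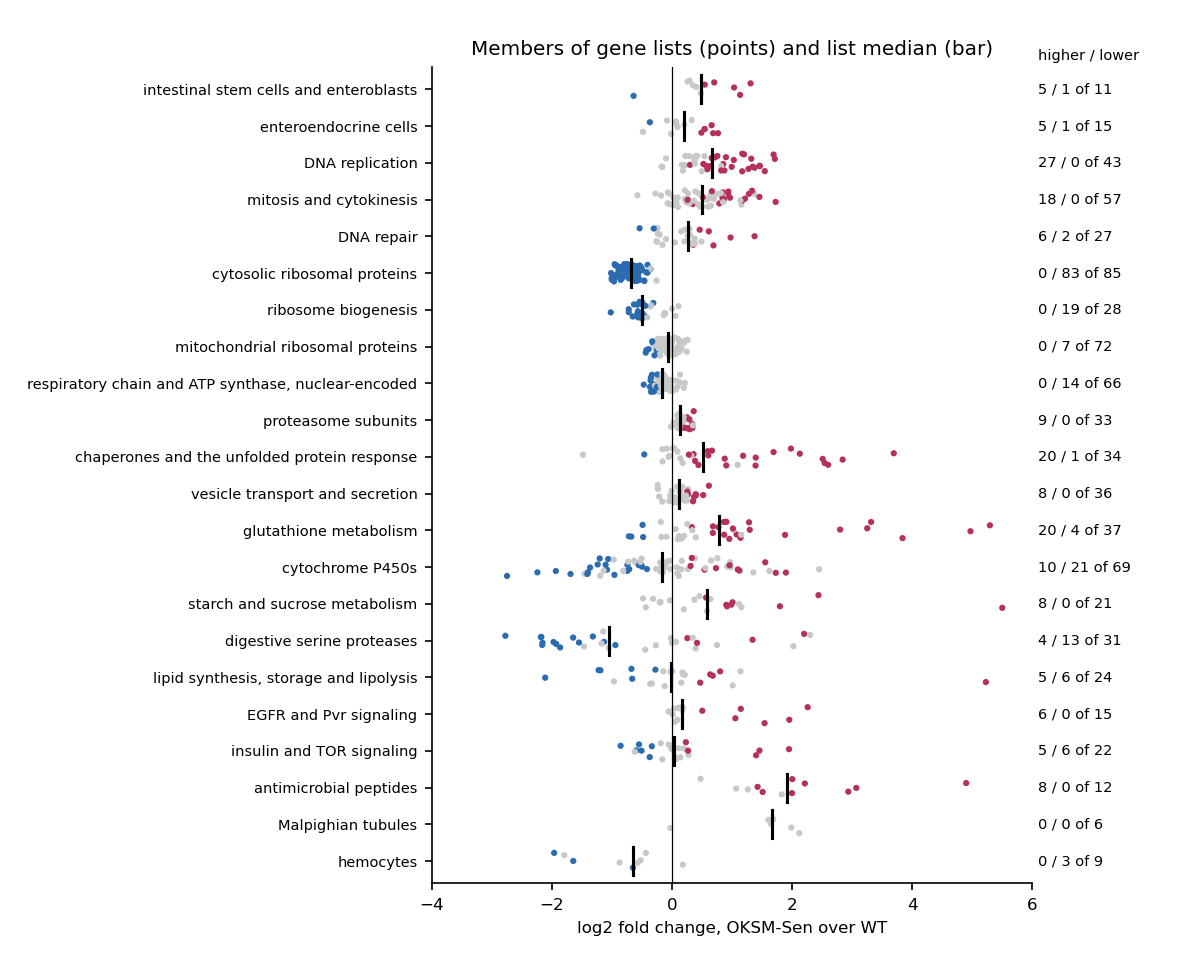
Log2 fold change of OKSM-Sen over WT (x axis) for the members of 22 gene lists (y axis), with a point per gene, called genes in color and others in gray, a bar at the median of each list and the counts higher and lower at the right. Cytosolic ribosomal proteins lie below 0 throughout, with a median of -0.68, DNA replication genes lie mostly above 0, with a median of 0.67, and digestive serine proteases and cytochrome P450s spread over both sides.

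The cells in which the constructs were expressed are represented by 11 markers, with a median log2 fold change of 0.48. Of these 5 were higher (45.5%, against 15.7% of all genes), 1 was lower (9.09%, against 13.3%) and 5 were not called. The clearest were the Sox family transcription factors of ISCs and enteroblasts. Sox21a, which enteroblasts need to differentiate, read 13.5, 9.84 and 19.6 CPM in WT and 30.8, 32.0 and 31.6 CPM in OKSM-Sen, without overlap. It rose by a log2 fold change of 1.13 ± 0.19 (SE, edgeR adjusted p = 0.00281). Sox100B, the fly relative of vertebrate Sox9, was at 14.9, 8.83 and 12.4 CPM in WT and 27.8, 33.6 and 28.1 CPM in OKSM-Sen and rose by a log2 of 1.31 ± 0.22 (SE, edgeR adjusted p = 0.00319). The Notch ligand Delta (Dl), which marks ISCs, read 4.96, 4.06 and 5.33 CPM in WT and 7.33, 6.60 and 7.03 CPM in OKSM-Sen. Its log2 fold change was 0.55 ± 0.16 (SE, edgeR adjusted p = 0.0351), with an adjusted p of 0.130 with WT replicate 2 left out. The driver's own gene escargot (esg) read 32.9, 20.0 and 24.2 CPM in WT and 29.4, 40.1 and 32.7 CPM in OKSM-Sen, so that the groups overlapped, and it was not called, with a log2 fold change of 0.41 ± 0.18 (SE, edgeR adjusted p = 0.139). The enteroblast Notch target E(spl)malpha-BFM was also called higher, with a log2 fold change of 0.70 ± 0.22 (SE, edgeR adjusted p = 0.0474) and an adjusted p of 0.155 with WT replicate 2 left out and 0.183 with OKSM-Sen replicate 2 left out. Over the list, the number of genes called higher was 2 with WT replicate 2 left out and 3 with OKSM-Sen replicate 2 left out, and the lower call was mira, an adaptor of asymmetric division, with a log2 fold change of -0.64 ± 0.25 (SE, edgeR adjusted p = 0.0995). Its adjusted p was 0.285 with WT replicate 1 left out, 0.226 with WT replicate 2 left out, 0.267 with OKSM-Sen replicate 1 left out and 0.232 with OKSM-Sen replicate 3 left out, and its log2 fold change was -1.01 without OKSM-Sen replicate 2.

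Of 15 enteroendocrine markers tested 5 were higher (33.3%, against 15.7% of all genes) and 1 was lower (6.67%, against 13.3%). The median log2 fold change was 0.21, with 11 genes of positive and 4 of negative value. For the peptide hormone genes Dh31 and NPF unscaled reads tended lower in OKSM-Sen, with overlap between the groups. As only 1 enteroendocrine gene was called lower, Dh31 and NPF were not both called. Dh31 had 116, 147 and 187 unscaled reads in WT and 99, 108 and 132 in OKSM-Sen. NPF had 482, 558 and 652 in WT and 468, 367 and 554 in OKSM-Sen. The vesicle GTPase Rab3 read 5.40, 6.29 and 6.06 CPM in WT and 8.66, 9.04 and 10.4 CPM in OKSM-Sen and rose by a log2 of 0.66 ± 0.14 (SE, edgeR adjusted p = 0.00875). The peptide hormone gene CCHa1 was at 16.5, 18.9 and 20.0 CPM in WT and 31.5, 22.9 and 26.4 CPM in OKSM-Sen, and its log2 fold change was 0.54 ± 0.14 (SE, edgeR adjusted p = 0.0237). CCHa2, another peptide hormone gene, had a log2 fold change of 0.77 ± 0.22 (SE, edgeR adjusted p = 0.0307), with an adjusted p of 0.1 with WT replicate 1 left out and 0.110 with OKSM-Sen replicate 3 left out. Fewer genes were called higher when single libraries were left out, namely 3 with WT replicate 1 left out, 3 with WT replicate 3 left out, 3 with OKSM-Sen replicate 1 left out and 2 with OKSM-Sen replicate 3 left out. The number lower was 2 with WT replicate 1 left out and 0 with WT replicate 2, WT replicate 3, OKSM-Sen replicate 1 or OKSM-Sen replicate 2 left out. Among 14 enterocyte markers, 5 were higher (35.7%, against 15.7% of all genes) and 3 lower (21.4%, against 13.3%). The number higher was 2 with WT replicate 1 or WT replicate 2 left out and 3 with OKSM-Sen replicate 2 or OKSM-Sen replicate 3 left out. The sterol transporter Npc1b (1111, 1013 and 1426 CPM in WT and 1854, 2149 and 2186 CPM in OKSM-Sen) rose by a log2 of 0.80 ± 0.14 (SE, edgeR adjusted p = 0.00365), and the protease zetaTry, at 271, 319 and 236 CPM in WT and 104, 124 and 103 CPM in OKSM-Sen, fell with a log2 fold change of -1.32 ± 0.25 (SE, edgeR adjusted p = 0.00585). Of the 4 copper cell genes, used as markers of the acid-secreting cells of the middle midgut, 3 were lower (75.0%, against 13.3%), by little. The gene lab was not called, with 317, 373 and 309 unscaled reads in WT and 290, 273 and 350 in OKSM-Sen. Ptx1 had a log2 fold change of -0.19 (edgeR adjusted p = 0.0579) and dve one of -0.44 (edgeR adjusted p = 0.0999). The proton pump subunit Vha100-4 had a log2 fold change of -0.47 ± 0.13 (SE, edgeR adjusted p = 0.0250), with an adjusted p of 0.103 with WT replicate 2 left out. The number of copper cell genes called lower was 1 with WT replicate 1 left out, 0 with WT replicate 2 left out, 1 with OKSM-Sen replicate 1 left out and 1 with OKSM-Sen replicate 3 left out.

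Of 16 visceral muscle genes 3 were higher (18.8%, against 15.7% of all genes) and 1 lower (6.25%, against 13.3%). None was called in either direction with WT replicate 1, WT replicate 2 or OKSM-Sen replicate 2 left out, 1 was higher with OKSM-Sen replicate 1 left out, and none was lower with OKSM-Sen replicate 3 left out. The muscle tropomyosin Tm1 had the smallest p, with a log2 fold change of 0.32 ± 0.09 (SE, edgeR adjusted p = 0.0299) and an adjusted p of 0.105 with WT replicate 1 left out, 0.112 with WT replicate 2 left out and 0.105 with OKSM-Sen replicate 2 left out. The tracheal factor trh was the single tracheal call, 1 of 5 genes (20.0% lower, against 13.3% of all genes). It had a log2 fold change of -1.07 ± 0.31 (SE, edgeR adjusted p = 0.0307). It did not pass without WT replicate 2 (adjusted p of 0.1001), OKSM-Sen replicate 1 (0.105) or OKSM-Sen replicate 3 (0.104). Of 9 hemocyte genes 3 were lower (33.3%, against 13.3% of all genes) and the median was -0.65. Hemolectin (Hml), a blood cell clotting factor, read 18.2, 15.6 and 11.8 CPM in WT and 5.41, 5.83 and 3.35 CPM in OKSM-Sen, without overlap, and had a log2 fold change of -1.65 ± 0.47 (SE, edgeR adjusted p = 0.0342), with an adjusted p of 0.117 with OKSM-Sen replicate 3 left out. With WT replicate 2 left out, only 1 of the 9 hemocyte genes was called lower. None of 5 neuronal and glial genes tested and none of 6 ovary and egg genes was called. In lists with no call in a direction, leaving out single libraries gave at most 1 call there, apart from the Malpighian tubule and vesicle transport lists.

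Many genes of cell division rose, from low levels. Of 43 DNA replication genes 27 were higher (62.8%, against 15.7% of all genes), none was lower and 16 were not called, and the median log2 fold change was 0.67. PolE1, the catalytic subunit of DNA polymerase epsilon, read 3.05, 2.92 and 2.94 CPM in WT and 8.0, 6.28 and 8.02 CPM in OKSM-Sen. No OKSM-Sen library came near the WT range, and the log2 fold change was 1.32 ± 0.19 (SE, edgeR adjusted p = 0.00141). RnrL, the large subunit of ribonucleotide reductase, which makes deoxynucleotides, was at 8.71, 4.57 and 9.80 CPM in WT and 21.9, 24.4 and 21.1 CPM in OKSM-Sen and rose by a log2 of 1.55 ± 0.24 (SE, edgeR adjusted p = 0.00190). Of the MCM helicase that opens the DNA at replication origins, Mcm3 read 4.07, 2.86 and 4.04 CPM in WT and 7.27, 7.82 and 6.81 CPM in OKSM-Sen and Mcm5 2.73, 1.33 and 2.51 CPM in WT and 5.35, 8.46 and 7.52 CPM in OKSM-Sen. Their log2 fold changes were 1.00 ± 0.17 (SE, edgeR adjusted p = 0.00291) and 1.69 ± 0.29 (SE, edgeR adjusted p = 0.00297). The sliding clamp PCNA rose by a log2 of 1.46 ± 0.27 (SE, edgeR adjusted p = 0.00454) and the G1/S cyclin CycE by 1.27 ± 0.33 (SE, edgeR adjusted p = 0.0207), both named after their values were seen. The count of replication genes called higher fell to 17 with WT replicate 2 left out, and WT replicate 2 was the WT library with the lowest level of RnrL, Mcm3, Mcm5, PCNA and CycE.

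Of 57 genes of mitosis and cytokinesis 18 were higher (31.6%, against 15.7% of all genes), none was lower, and the median was 0.51. Centrosomin (cnn), which builds the centrosome, read 15.4, 13.1 and 13.0 CPM in WT and 30.7, 30.6 and 39.9 CPM in OKSM-Sen and rose by a log2 of 1.28 ± 0.13 (SE, edgeR adjusted p = 2.57e-04). Sticky (sti), the citron kinase of the cleavage furrow, was scarce in every library, at 1.59, 0.572 and 1.84 CPM in WT and 4.09, 5.0 and 4.23 CPM in OKSM-Sen. It rose by a log2 of 1.73 ± 0.38 (SE, edgeR adjusted p = 0.00994), and the centrosomal protein tacc, far more abundant at 85.5, 75.6 and 98.9 CPM in WT and 124, 115 and 132 CPM in OKSM-Sen, by 0.51 ± 0.12 (SE, edgeR adjusted p = 0.0119). The mitotic kinases were lower in count and less firm: aurB had a log2 fold change of 1.17 ± 0.33 (SE, edgeR adjusted p = 0.0296), with an adjusted p of 0.102 with WT replicate 2 left out and 0.107 with OKSM-Sen replicate 3 left out. Leaving out single libraries reduced the number called higher to 7 with WT replicate 2 left out and 7 with OKSM-Sen replicate 3 left out. In DNA repair 6 of 27 genes were higher (22.2%, against 15.7% of all genes) and 2 lower (7.41%, against 13.3%). The checkpoint kinase grp (Chk1) read 30.2, 23.9 and 26.5 CPM in WT and 39.4, 39.9 and 44.0 CPM in OKSM-Sen and rose by a log2 of 0.61 ± 0.10 (SE, edgeR adjusted p = 0.00291). The mismatch repair gene Msh6 rose by a log2 of 0.98 ± 0.25 (SE, edgeR adjusted p = 0.0193) and the poly(ADP-ribose) polymerase Parp1 by 0.46 ± 0.12 (SE, edgeR adjusted p = 0.0221), whereas rad50, of the complex that binds broken DNA ends, had a log2 fold change of -0.54 ± 0.15 (SE, edgeR adjusted p = 0.0257). The number of repair genes called higher was 3 with WT replicate 2 left out and 3 with OKSM-Sen replicate 1 left out, and the number lower was 1 with WT replicate 1 left out, 1 with WT replicate 2 left out, 1 with OKSM-Sen replicate 2 left out and 1 with OKSM-Sen replicate 3 left out.

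Transcripts of the translation apparatus moved the other way. Of 85 genes of cytosolic ribosomal proteins 83 were lower (97.6%, against 13.3% of all genes), none was higher, and the median log2 fold change was -0.68, 1.6-fold lower. These are among the most abundant transcripts of the gut. RpL5 read 2997, 3313 and 2645 CPM in WT and 1497, 1472 and 1647 CPM in OKSM-Sen, without overlap, and fell with a log2 fold change of -0.96 ± 0.13 (SE, edgeR adjusted p = 9.66e-04). RpS2, of the small subunit, read 1549.7, 1729 and 1193 CPM in WT and 698, 785 and 728 CPM in OKSM-Sen and had a log2 fold change of -1.02 ± 0.14 (SE, edgeR adjusted p = 0.00107). RpL10Ab and RpL36 fell with log2 fold changes of -0.92 ± 0.12 (SE, edgeR adjusted p = 7.91e-04) and -0.71 ± 0.10 (SE, edgeR adjusted p = 0.00119). All of the 85 genes had a log2 fold change below 0, from -1.02 to -0.26, and 81 to 84 were called lower when single WT or OKSM-Sen libraries were left out.

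Genes that build ribosomes in the nucleolus fell with them: 19 of 28 were lower (67.9%, against 13.3% of all genes) and none was higher. The median was -0.49, with 14 to 19 called when single libraries were left out. Nucleostemin 1 (Ns1), a nucleolar GTPase, read 64.6, 62.1 and 54.4 CPM in WT and 40.0, 39.2 and 42.1 CPM in OKSM-Sen and had a log2 fold change of -0.58 ± 0.08 (SE, edgeR adjusted p = 0.00154). Non1, a GTPase needed for the large subunit, was at 709, 663 and 543 CPM in WT and 323, 268 and 352 CPM in OKSM-Sen and fell by more, with a log2 fold change of -1.02 ± 0.17 (SE, edgeR adjusted p = 0.00291). RIOK2, a kinase of small subunit maturation, had a log2 fold change of -0.72 ± 0.11 (SE, edgeR adjusted p = 0.00216) and the nucleolar protein nclb of -0.57 ± 0.11 (SE, edgeR adjusted p = 0.00533). The fly Myc gene, whose product drives ribosome production and cell growth, read 307, 293 and 236 CPM in WT and 169, 154 and 187 CPM in OKSM-Sen. The groups did not overlap, and Myc fell with a log2 fold change of -0.71 ± 0.12 (SE, edgeR adjusted p = 0.00328), together with its partner Max, with a log2 fold change of -0.41 ± 0.09 (SE, edgeR adjusted p = 0.0127). Human Myc is one of the factors of the OKSM construct, and its transcript is not among the genes counted.

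Of 72 mitochondrial ribosomal proteins 7 were lower (9.72%, against 13.3% of all genes) and none higher, with a median of -0.07, and of 66 nuclear-encoded genes of the respiratory chain and ATP synthase 14 were lower (21.2%) and none higher, with a median of -0.16. The complex I subunit ND-18 read 82.6, 89.0 and 84.7 CPM in WT and 56.2, 70.2 and 58.5 CPM in OKSM-Sen and had a log2 fold change of -0.47 ± 0.11 (SE, edgeR adjusted p = 0.0126), and ND-PDSW one of -0.36 ± 0.08 (SE, edgeR adjusted p = 0.0136). The respiratory count was 2 with WT replicate 2 left out, 5 with OKSM-Sen replicate 1 left out, 29 with OKSM-Sen replicate 2 left out and 3 with OKSM-Sen replicate 3 left out. The count of mitochondrial ribosomal proteins was 1 with WT replicate 2 left out, 3 with OKSM-Sen replicate 1 left out, 12 with OKSM-Sen replicate 2 left out and 2 with OKSM-Sen replicate 3 left out. Of 12 protein-coding genes of the mitochondrial genome 1, mt:ND4, was lower (8.33%, against 13.3% of all genes). Its log2 fold change was -0.38 ± 0.14 (SE, edgeR adjusted p = 0.0872), a call that only leaving out WT replicate 1 kept. The adjusted p was 0.196 and 0.180 without WT replicates 2 and 3. Without OKSM-Sen replicates 1, 2 and 3 it was 0.140, 0.130 and 0.208.

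**Figure D4:**
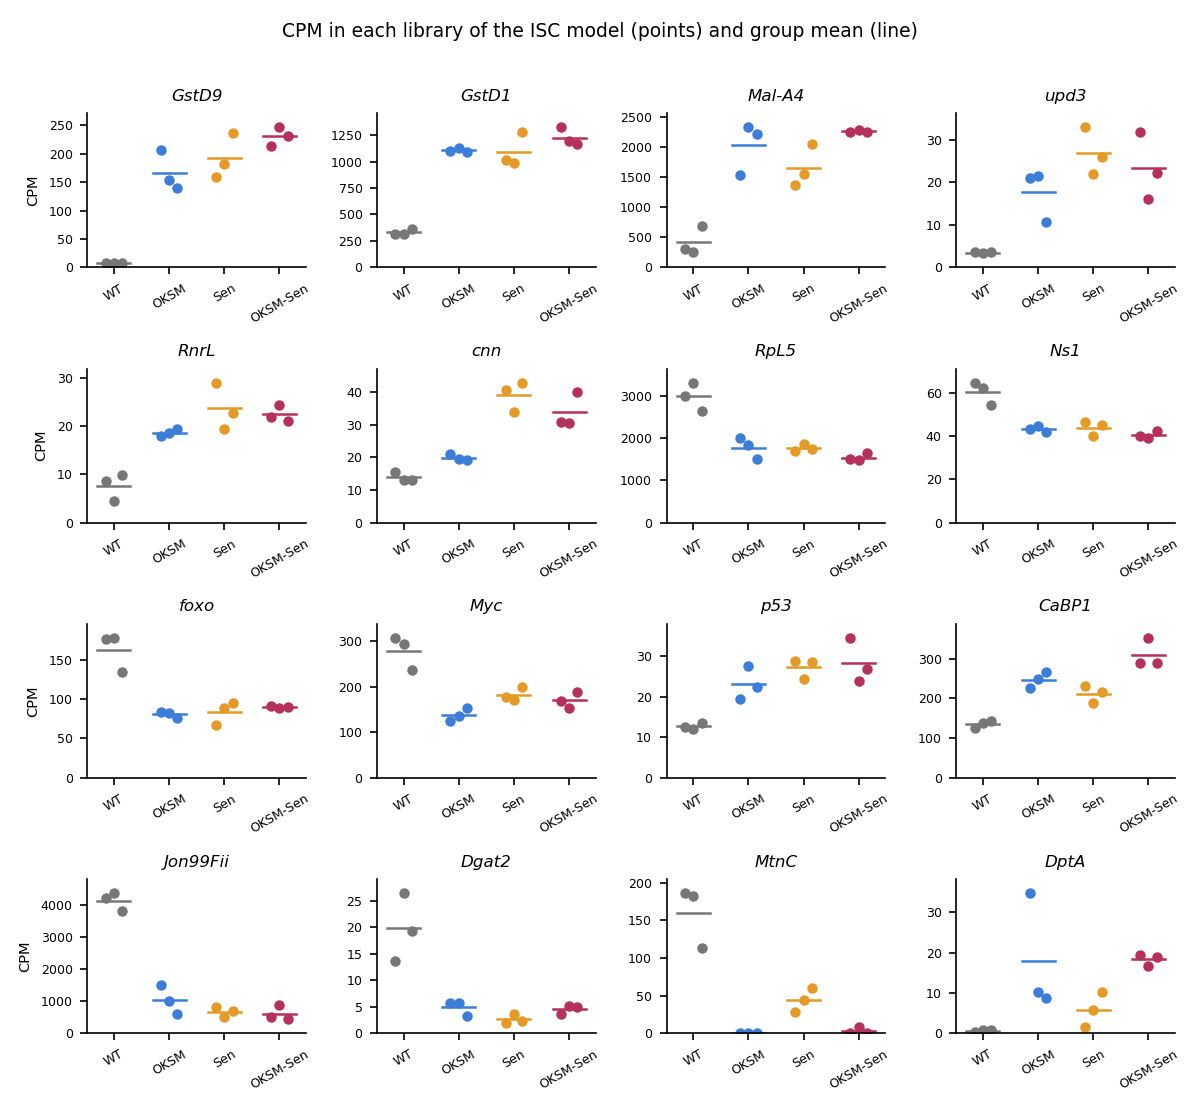
CPM (y axis, own scale in each panel, from 0) of 16 genes in the 12 libraries of the ISC-restricted model, with a point per library and a bar at the group mean, for WT, OKSM, Sen and OKSM-Sen. GstD9, GstD1, Mal-A4, upd3, RnrL, cnn, p53, CaBP1 and DptA are higher and RpL5, Ns1, foxo, Myc, Jon99Fii, Dgat2 and MtnC lower in all 3 OKSM-Sen libraries than in any WT library.

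Genes of detoxification were among those with the largest rises. Of 37 genes of glutathione metabolism 20 were higher (54.1%, against 15.7% of all genes) and 4 lower (10.8%, against 13.3%), with a median of 0.78. Glutathione S-transferases (GSTs) join glutathione to reactive or foreign compounds. GstD9 read 6.86, 7.43 and 7.71 CPM in WT and 214, 247 and 232 CPM in OKSM-Sen, a 31.4-fold difference of the fit, and rose by a log2 fold change of 4.97 ± 0.20 (SE, edgeR adjusted p = 4.32e-07). GstD1, known for DDT breakdown, was at 315, 318 and 365 CPM in WT and 1325, 1192 and 1168 CPM in OKSM-Sen, for a log2 fold change of 1.88 ± 0.12 (SE, edgeR adjusted p = 9.51e-06). GstD8 read 3.94, 5.02 and 4.29 CPM in WT and 33.2, 39.3 and 54.0 CPM in OKSM-Sen and rose by a log2 of 3.25 ± 0.20 (SE, edgeR adjusted p = 9.51e-06). GstD5 varied more between replicates, at 3.37, 3.81 and 7.84 CPM in WT and 225, 99.7 and 268 CPM in OKSM-Sen, and rose by a log2 of 5.30 ± 0.83 (SE, edgeR adjusted p = 0.00321). GstD10 and GstD2 rose by a log2 of 3.32 ± 0.30 (SE, edgeR adjusted p = 1.91e-04) and 3.84 ± 0.52 (SE, edgeR adjusted p = 0.00135). All 9 GstD genes tested, which lie between positions 12364776 and 12380815 of chromosome arm 3R in the BDGP6.54 annotation, were called higher. As these genes lie side by side and are similar in sequence, they do not count as independent. GstE6 and GstT1, from other GST classes, rose by a log2 of 1.14 ± 0.16 (SE, edgeR adjusted p = 0.00123) and 0.78 ± 0.12 (SE, edgeR adjusted p = 0.00172), both named after their values were seen. Between 15 and 19 genes of the list were called higher when single libraries were left out. The 4 lower genes were less firm: Gclm, the regulatory subunit of the enzyme that starts glutathione synthesis, had a log2 fold change of -0.49 ± 0.18 (SE, edgeR adjusted p = 0.0777) and an adjusted p of 0.181 with WT replicate 1 left out, 0.183 with WT replicate 2 left out, 0.103 with OKSM-Sen replicate 1 left out, 0.131 with OKSM-Sen replicate 2 left out and 0.207 with OKSM-Sen replicate 3 left out, and the number of lower genes was 1 with WT replicate 1 left out, 0 with WT replicate 2 left out, 2 with OKSM-Sen replicate 1 left out, 1 with OKSM-Sen replicate 2 left out and 0 with OKSM-Sen replicate 3 left out.

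Cytochrome P450s, which oxidise toxins, hormones and fatty acids, moved in both directions, with a median of -0.17. Of 69 genes 10 were higher (14.5%, near the 15.7% of all genes) and 21 lower (30.4%, against 13.3%). Cyp9b2 read 669, 721 and 552 CPM in WT and 1975, 2121 and 2342 CPM in OKSM-Sen and rose by a log2 of 1.73 ± 0.17 (SE, edgeR adjusted p = 2.11e-04), and Cyp6d4 rose by 0.96 ± 0.12 (SE, edgeR adjusted p = 7.18e-04). Cyp4d1 was at 134, 171 and 163 CPM in WT and 29.5, 40.1 and 29.2 CPM in OKSM-Sen. It fell with a log2 fold change of -2.24 ± 0.18 (SE, edgeR adjusted p = 9.88e-05), and Cyp4ac1 with one of -1.08 ± 0.12 (SE, edgeR adjusted p = 5.46e-04). The number called higher was 6 with WT replicate 1 left out and 6 with OKSM-Sen replicate 3 left out, and the number called lower was 11 with WT replicate 2 left out. Metallothioneins, small proteins that bind copper and zinc, diverged as well. MtnC read 186, 182 and 113 CPM in WT and 0.120, 8.72 and 0.0549 CPM in OKSM-Sen, so that OKSM-Sen replicate 2 held most of what was left. Its log2 fold change was -5.80 ± 1.09 (SE, edgeR adjusted p = 0.00685), and -10.76 without that library. MtnA, at 1465, 2093 and 1295 CPM in WT and 741, 500.2 and 976 CPM in OKSM-Sen, had a log2 fold change of -1.13 ± 0.34 (SE, edgeR adjusted p = 0.0424), with an adjusted p of 0.150 with WT replicate 2 left out, 0.105 with OKSM-Sen replicate 1 left out and 0.103 with OKSM-Sen replicate 2 left out. MtnD was higher, with a log2 fold change of 0.78 ± 0.22 (SE, edgeR adjusted p = 0.0293), with an adjusted p of 0.109 with WT replicate 2 left out and 0.105 with OKSM-Sen replicate 3 left out. Of the 10 metallothionein and copper transport genes tested, 1 was higher (10.0%, against 15.7% of all genes) and 2 were lower (20.0%, against 13.3%). The number higher was 0 with WT replicate 2 or OKSM-Sen replicate 3 left out and 2 with WT replicate 3 left out, and the number lower was 1 with WT replicate 2 left out, 1 with OKSM-Sen replicate 1 left out and 1 with OKSM-Sen replicate 2 left out.

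Among digestive enzymes, several genes of starch and sugar breakdown rose and many proteases fell. Of 21 genes of starch and sucrose metabolism 8 were higher (38.1%, against 15.7% of all genes) and none was lower. The median was 0.58, with 6 to 10 called when single libraries were left out. Amyrel, an amylase relative, read 0.381, 0.889 and 5.94 CPM in WT and 144, 67.0 and 119 CPM in OKSM-Sen. Most of its WT reads were in replicate 3, and it rose by a log2 of 5.50 ± 0.95 (SE, edgeR adjusted p = 0.00469). The maltases, which split disaccharides, followed: Mal-A4 was at 301, 256 and 690.0 CPM in WT and 2246, 2288 and 2239 CPM in OKSM-Sen and rose by a log2 of 2.44 ± 0.35 (SE, edgeR adjusted p = 0.00172), Mal-A3 rose by 1.80 ± 0.38 (SE, edgeR adjusted p = 0.00957) and Mal-A2 by 0.92 ± 0.18 (SE, edgeR adjusted p = 0.00547). The abundant maltase Mal-A1 read 4648, 3574 and 4331 CPM in WT and 6845, 8313 and 8349.5 CPM in OKSM-Sen and rose by a log2 of 0.91 ± 0.22 (SE, edgeR adjusted p = 0.0152). WT replicate 3 held the highest WT level of Amyrel, Mal-A4, Mal-A3 and Mal-A2.

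Of 31 digestive serine proteases 13 were lower (41.9%, against 13.3% of all genes) and 4 higher (12.9%, against 15.7%), with a median of -1.05. The jonah protease Jon99Fii read 4219, 4360.4 and 3800.0 CPM in WT and 494, 870.1 and 442 CPM in OKSM-Sen. The groups were far apart, and it fell with a log2 fold change of -2.78 ± 0.36 (SE, edgeR adjusted p = 0.00122). The trypsin thetaTry was at 2221, 2249 and 2864 CPM in WT and 476, 675 and 493 CPM in OKSM-Sen, for a log2 fold change of -2.16 ± 0.33 (SE, edgeR adjusted p = 0.00216), and iotaTry at 344, 343 and 284 CPM in WT and 161, 155 and 128 CPM in OKSM-Sen, for a log2 fold change of -1.13 ± 0.11 (SE, edgeR adjusted p = 1.55e-04). The trypsin alphaTry, among the most abundant transcripts of the gut, read 23538, 20595 and 24596 CPM in WT and 5429, 9811 and 8224 CPM in OKSM-Sen and fell with a log2 fold change of -1.55 ± 0.34 (SE, edgeR adjusted p = 0.0105). Reads of the alpha, gamma and delta trypsins and of Amy-p and Amy-d were divided between near-identical genes, so their single values are uncertain. Jon25Biii went against the group, at 1275, 1625 and 1712 CPM in WT and 3915, 4790.0 and 2996 CPM in OKSM-Sen, and rose by a log2 of 1.34 ± 0.23 (SE, edgeR adjusted p = 0.00323). Between 9 and 15 proteases were called lower when single libraries were left out, and the number higher was 2 with WT replicate 1 left out, 7 with WT replicate 3 left out and 2 with OKSM-Sen replicate 2 left out. Another trypsin outside the list, Try29F, read 267, 136 and 55.0 CPM in WT and 32.4, 8.27 and 11.0 CPM in OKSM-Sen and fell with a log2 fold change of -3.15 ± 0.73 (SE, edgeR adjusted p = 0.0163).

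Genes of lipid handling were divided, with 5 of 24 higher (20.8%, against 15.7% of all genes) and 6 lower (25.0%, against 13.3%) and a median of -0.01. Lip3, a lipase, read 0.127, 0.191 and 0.551 CPM in WT and 16, 6.60 and 11.1 CPM in OKSM-Sen and rose by a log2 of 5.23 ± 0.79 (SE, edgeR adjusted p = 0.00222). The secreted lipase magro (mag), which digests fat in the gut lumen, was at 1659, 1673 and 1341 CPM in WT and 620.3, 893 and 532 CPM in OKSM-Sen and fell with a log2 fold change of -1.19 ± 0.19 (SE, edgeR adjusted p = 0.00246). Dgat2, an acyltransferase of triglyceride synthesis, read 13.7, 26.5 and 19.3 CPM in WT and 3.61, 5.13 and 5.0 CPM in OKSM-Sen, without overlap, with a log2 fold change of -2.11 ± 0.32 (SE, edgeR adjusted p = 0.00172). The lipid droplet protein Lsd-1 had a log2 fold change of -1.22 ± 0.33 (SE, edgeR adjusted p = 0.0282), with an adjusted p of 0.107 with WT replicate 2 left out. The number of lipid genes called higher was 2 with WT replicate 1 left out, 3 with WT replicate 2 left out and 3 with OKSM-Sen replicate 3 left out. In fatty acid degradation and the peroxisome 3 of 30 were higher (10.0%) and 5 lower (16.7%), against 15.7% and 13.3% of all genes. The acyl-CoA synthetase pudgy (pdgy) read 72.8, 70.8 and 101 CPM in WT and 189, 174 and 188 CPM in OKSM-Sen and rose by a log2 of 1.17 ± 0.16 (SE, edgeR adjusted p = 0.00103), and the thiolase yip2 rose by 0.48 ± 0.14 (SE, edgeR adjusted p = 0.0307). The number of its genes called lower was 8 with WT replicate 1 left out, 0 with WT replicate 2 left out, 3 with WT replicate 3 left out, 1 with OKSM-Sen replicate 1 left out, 10 with OKSM-Sen replicate 2 left out and 1 with OKSM-Sen replicate 3 left out. Among lysosomal genes 6 of 30 were higher (20.0%, near the 15.7% of all genes) and 2 lower (6.67%, against 13.3%). Gba1a and Gba1b, the fly glucocerebrosidases, read 435, 391 and 856 CPM in WT and 1902, 1854 and 1878 CPM in OKSM-Sen and 5.21, 4.57 and 10.5 CPM in WT and 24.9, 24.9 and 28.6 CPM in OKSM-Sen. They rose by a log2 of 1.74 ± 0.26 (SE, edgeR adjusted p = 0.00182) and 1.95 ± 0.30 (SE, edgeR adjusted p = 0.00216), the protease cathD rose by 0.47 ± 0.08 (SE, edgeR adjusted p = 0.00397), and the lower count was 1 with WT replicate 3 left out and 1 with OKSM-Sen replicate 3 left out.

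Most chaperone genes rose, with 20 of 34 higher (58.8%, against 15.7% of all genes) and a median of 0.52. Only 1 was lower (2.94%, against 13.3%), and 14 to 19 were called higher when single libraries were left out. Part of the list acts in the endoplasmic reticulum (ER). CaBP1, a disulfide isomerase of the ER, read 126, 139 and 144 CPM in WT and 288, 353 and 289 CPM in OKSM-Sen and rose by a log2 of 1.18 ± 0.11 (SE, edgeR adjusted p = 1.70e-04). Sil1, which recharges the ER chaperone BiP, was at 15.9, 13.7 and 15.1 CPM in WT and 39.3, 38.1 and 39.9 CPM in OKSM-Sen and rose by a log2 of 1.40 ± 0.18 (SE, edgeR adjusted p = 9.66e-04). BiP itself (Hsc70-3) read 786, 748 and 704 CPM in WT and 1040.4, 1251 and 1094 CPM in OKSM-Sen, for a log2 fold change of 0.60 ± 0.12 (SE, edgeR adjusted p = 0.00735), and the ER Hsp90 gene Gp93 rose by 0.67 ± 0.14 (SE, edgeR adjusted p = 0.00806). ERp60, another disulfide isomerase, rose by a log2 of 0.61 ± 0.11 (SE, edgeR adjusted p = 0.00362). Manf, a secreted factor of the ER stress response listed with the lysosomal genes, rose by a log2 of 0.66 ± 0.10 (SE, edgeR adjusted p = 0.00188). The single lower gene was cryptocephal (crc), the fly ATF4, at 586, 589 and 525 CPM in WT and 409.7, 404 and 420.3 CPM in OKSM-Sen, for a log2 fold change of -0.46 ± 0.08 (SE, edgeR adjusted p = 0.00377), and the count of lower genes was 2 with OKSM-Sen replicate 2 left out.

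The other part is heat-inducible. Hsp23, a small heat shock protein, read 1.59, 3.30 and 4.59 CPM in WT and 75.0, 18.2 and 30.3 CPM in OKSM-Sen, highest in OKSM-Sen replicate 1, and rose by a log2 of 3.70 ± 0.62 (SE, edgeR adjusted p = 0.00397). Hsp68 (3.37, 2.79 and 5.02 CPM in WT and 37.2, 13.8 and 17.0 CPM in OKSM-Sen) rose by a log2 of 2.60 ± 0.45 (SE, edgeR adjusted p = 0.00413), Hsp26 by 2.54 ± 0.47 (SE, edgeR adjusted p = 0.00563) and Hsp22 by 2.13 ± 0.42 (SE, edgeR adjusted p = 0.00753). In OKSM-Sen replicate 1 Hsp23, Hsp68, Hsp26 and Hsp22 were all above the other OKSM-Sen replicates. Reads of the Hsp70 copies are uncertain one by one. Of 36 genes of vesicle transport 8 were higher (22.2%, against 15.7% of all genes) and none was lower, and the median was 0.11. With OKSM-Sen replicate 2 left out 5 were higher and 4 lower, and the median was 0.03. Sec22, a SNARE of transport between ER and Golgi, read 104, 105 and 102 CPM in WT and 132, 162 and 153 CPM in OKSM-Sen and rose by a log2 of 0.52 ± 0.09 (SE, edgeR adjusted p = 0.00291), the COPI coat subunit beta'COP rose by 0.40 ± 0.08 (SE, edgeR adjusted p = 0.00771), the Golgi SNARE Gos28 by 0.62 ± 0.14 (SE, edgeR adjusted p = 0.0105) and Slh, which acts with Golgi SNAREs, by 0.39 ± 0.08 (SE, edgeR adjusted p = 0.00534). Proteasome subunits rose slightly, with 9 of 33 higher (27.3%, against 15.7% of all genes) and a median of 0.14. Rpn9 (71.8, 73.0 and 86.3 CPM in WT and 99.2, 95.6 and 97.3 CPM in OKSM-Sen) rose by a log2 of 0.34 ± 0.09 (SE, edgeR adjusted p = 0.0194) and Rpn3 by 0.29 ± 0.07 (SE, edgeR adjusted p = 0.0206), but the count was 2 with WT replicate 1 left out, 2 with WT replicate 2 left out, 2 with OKSM-Sen replicate 1 left out, 4 with OKSM-Sen replicate 2 left out and 2 with OKSM-Sen replicate 3 left out. In autophagy 4 of 15 genes were higher (26.7%, against 15.7% of all genes) and 2 lower (13.3%, the share of all genes). The number lower was 0 or 1 with WT replicate 1, WT replicate 2, OKSM-Sen replicate 1 or OKSM-Sen replicate 2 left out. The cargo receptor ref(2)P, the fly p62, read 599, 584 and 707 CPM in WT and 935, 805 and 954 CPM in OKSM-Sen and rose by a log2 of 0.51 ± 0.11 (SE, edgeR adjusted p = 0.00855), and the number higher was 1 with WT replicate 1 left out, 1 with WT replicate 2 left out, 1 with OKSM-Sen replicate 1 left out and 2 with OKSM-Sen replicate 3 left out.

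Among the signals that control ISC division, the cytokine unpaired 3 (upd3) had the largest change. It read 3.50, 3.30 and 3.55 CPM in WT and 31.9, 16.1 and 22.2 CPM in OKSM-Sen. The lowest OKSM-Sen library was several times the highest WT library, and upd3 rose by a log2 of 2.76 ± 0.32 (SE, edgeR adjusted p = 6.72e-04). Its receptor domeless (dome) was at 88.7, 94.3 and 105 CPM in WT and 135, 124 and 133 CPM in OKSM-Sen and rose by a log2 of 0.45 ± 0.09 (SE, edgeR adjusted p = 0.00518). Of 15 genes of JAK/STAT signaling 3 were higher (20.0%, near the 15.7% of all genes) and 1 lower (6.67%, against 13.3%), with a median of 0.03. The lower one, TotA, with a log2 fold change of -2.09 ± 0.70 (SE, edgeR adjusted p = 0.0577), had an adjusted p of 0.240 with WT replicate 2 left out, 0.163 with OKSM-Sen replicate 1 left out and 0.119 with OKSM-Sen replicate 2 left out. Of 15 genes of EGFR and Pvr signaling 6 were higher (40.0%, against 15.7% of all genes) and none was lower, with a median of 0.17. When single libraries were left out, 4 to 6 were called. The EGF ligand Keren (Krn) was at 24.3, 19.5 and 20.3 CPM in WT and 32.7, 27.8 and 30.4 CPM in OKSM-Sen, for a log2 fold change of 0.50 ± 0.10 (SE, edgeR adjusted p = 0.00751). The PDGF- and VEGF-related ligands Pvf1 (48.4, 29.5 and 47.0 CPM in WT and 88.6, 88.2 and 83 CPM in OKSM-Sen) and Pvf2 (1.02, 0.635 and 1.41 CPM in WT and 3.85, 2.88 and 2.25 CPM in OKSM-Sen) rose by a log2 of 1.06 ± 0.22 (SE, edgeR adjusted p = 0.00895) and 1.54 ± 0.38 (SE, edgeR adjusted p = 0.0170). Another EGF ligand, vein (vn), had a log2 fold change of 1.15 ± 0.38 (SE, edgeR adjusted p = 0.0566), with an adjusted p of 0.144 with WT replicate 1 left out, 0.155 with WT replicate 2 left out, 0.223 with OKSM-Sen replicate 1 left out and 0.110 with OKSM-Sen replicate 3 left out.

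Of 15 Notch pathway genes 6 were higher (40.0%, against 15.7% of all genes) and 1 lower (6.67%, against 13.3%), with a median of 0.35. The receptor Notch (N) read 12.8, 7.81 and 9.43 CPM in WT and 15.3, 15.3 and 20.0 CPM in OKSM-Sen and rose by a log2 of 0.75 ± 0.17 (SE, edgeR adjusted p = 0.0115). Presenilin (Psn), which cuts the receptor, rose by a log2 of 0.49 ± 0.12 (SE, edgeR adjusted p = 0.0189), and the number of Notch genes called higher was 2 with WT replicate 2 left out. The Notch ligand Ser had a log2 fold change of -0.59 ± 0.18 (SE, edgeR adjusted p = 0.0430), with an adjusted p of 0.122 with WT replicate 1 left out, 0.101 with OKSM-Sen replicate 2 left out and 0.145 with OKSM-Sen replicate 3 left out. In JNK signaling 3 of 15 were higher (20.0%, near the 15.7% of all genes) and none lower. The JNK kinase kinase hep rose by a log2 of 0.27 ± 0.07 (SE, edgeR adjusted p = 0.0260), but had an adjusted p of 0.117 without both relabelled libraries, and the number was 1 with WT replicate 1 left out and 1 with OKSM-Sen replicate 3 left out.

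Of 22 Wnt pathway genes 2 were higher (9.09%) and 3 lower (13.6%), near or under the 15.7% and 13.3% of all genes, and the number higher was 0 or 1 with any library other than WT replicate 3 left out. The shares of the Hedgehog, TGF-beta and Hippo lists lay below those of all genes in both directions. The Wnt transcription factor pangolin (pan, the fly TCF) was at 107, 103 and 113 CPM in WT and 72.7, 68.3 and 66.3 CPM in OKSM-Sen and fell with a log2 fold change of -0.64 ± 0.11 (SE, edgeR adjusted p = 0.00381), and Notum, a secreted inhibitor of Wnt proteins, read 3.05, 3.37 and 0.980 CPM in WT and 0.421, 0.513 and 0.824 CPM in OKSM-Sen, for a log2 fold change of -2.05 ± 0.48 (SE, edgeR adjusted p = 0.0128). Of 11 Hedgehog genes 1 was lower, the signal transducer smo, at 9.98, 8.64 and 8.88 CPM in WT and 5.83, 5.64 and 6.04 CPM in OKSM-Sen, for a log2 fold change of -0.65 ± 0.18 (SE, edgeR adjusted p = 0.0248). Of 18 genes of TGF-beta and BMP signaling 1 was higher and 2 were lower. The BMP receptor wishful thinking (wit) read 96.2, 85.4 and 73.3 CPM in WT and 35.6, 38.8 and 37.6 CPM in OKSM-Sen and fell with a log2 fold change of -1.19 ± 0.19 (SE, edgeR adjusted p = 0.00218). The Smad gene Mad had a log2 fold change of 0.25 ± 0.07 (SE, edgeR adjusted p = 0.0311), with an adjusted p of 0.111 with OKSM-Sen replicate 3 left out, and Smox one of -0.33 ± 0.10 (SE, edgeR adjusted p = 0.0369), with an adjusted p of 0.133 with WT replicate 1 left out and 0.102 with OKSM-Sen replicate 1 left out. Of 14 Hippo genes 1 was higher and 1 lower, and 0 to 3 were called in each direction when single libraries were left out. The log2 fold changes were 0.29 ± 0.09 (SE, edgeR adjusted p = 0.0462) for jub and -0.88 ± 0.28 (SE, edgeR adjusted p = 0.0458) for ds, with an adjusted p for jub of 0.148 with WT replicate 1 left out, 0.131 with WT replicate 2 left out and 0.141 with OKSM-Sen replicate 1 left out, and for ds of 0.151 with WT replicate 1 left out, 0.105 with WT replicate 2 left out, 0.113 with OKSM-Sen replicate 2 left out and 0.106 with OKSM-Sen replicate 3 left out.

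Sen was designed around FoxO and p53, and both genes changed at the transcript level. The fly foxo gene, a transcription factor restrained by insulin signaling, read 177, 178 and 134 CPM in WT and 90.8, 88.7 and 90.6 CPM in OKSM-Sen. The OKSM-Sen libraries lay close together below the WT range, and foxo fell with a log2 fold change of -0.86 ± 0.14 (SE, edgeR adjusted p = 0.00229). The p53 gene was at 12.5, 11.9 and 13.7 CPM in WT and 34.6, 24.0 and 26.9 CPM in OKSM-Sen, again without overlap, and rose by a log2 of 1.17 ± 0.16 (SE, edgeR adjusted p = 0.00119). Thor, the 4E-BP gene that FoxO activates, read 886, 1564 and 787 CPM in WT and 828, 569 and 707 CPM in OKSM-Sen and was not called, with a log2 fold change of -0.62 ± 0.34 (SE, edgeR adjusted p = 0.226). The gene fork head (fkh), whose protein the methods name as the source of the Sen peptide, was at 115, 93.7 and 98.3 CPM in WT and 161, 95.1 and 109.6 CPM in OKSM-Sen and was not called either, with a log2 fold change of 0.25 ± 0.20 (SE, edgeR adjusted p = 0.405). Whether reads of the Sen construct were counted under fkh or foxo was not tested.

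Of 22 genes of insulin and TOR signaling 5 were higher (22.7%, against 15.7% of all genes) and 6 lower (27.3%, against 13.3%), with a median of 0.03. Pi3K21B, the regulatory subunit of PI3 kinase, read 56.2, 45.8 and 71.5 CPM in WT and 195, 139 and 143 CPM in OKSM-Sen and rose by a log2 of 1.46 ± 0.23 (SE, edgeR adjusted p = 0.00249). The insulin-like peptide Ilp3, which gut muscle makes, rose by a log2 of 1.95 ± 0.40 (SE, edgeR adjusted p = 0.00783) from 2.16, 3.24 and 5.20 CPM in WT and 16.8, 10.9 and 13.3 CPM in OKSM-Sen. Downstream, the TOR activator Rheb, at 150.2, 140.0 and 126 CPM in WT and 93.7, 89.8 and 101 CPM in OKSM-Sen, had a log2 fold change of -0.55 ± 0.10 (SE, edgeR adjusted p = 0.00347), and the ribosomal S6 kinase S6k, at 251, 276 and 219.9 CPM in WT and 160.3, 172 and 162 CPM in OKSM-Sen, one of -0.60 ± 0.10 (SE, edgeR adjusted p = 0.00326). The number of genes called higher was 3 with WT replicate 1 left out, 3 with OKSM-Sen replicate 2 left out and 3 with OKSM-Sen replicate 3 left out, and the number lower was 3 with WT replicate 2 left out. In the list of apoptosis and p53, 6 of 17 were higher (35.3%, against 15.7% of all genes) and 1 lower (5.88%, against 13.3%). The median was 0.25, and 4 to 6 were called higher when single libraries were left out. Irbp18, a bZIP factor that partners the p53 target Xrp1, rose by a log2 of 0.99 ± 0.16 (SE, edgeR adjusted p = 0.00224) and the caspase Strica by 0.46 ± 0.10 (SE, edgeR adjusted p = 0.00948), while the effector caspase Dcp-1 read 89.7, 115 and 91.2 CPM in WT and 57.6, 62.6 and 66.9 CPM in OKSM-Sen and fell with a log2 fold change of -0.66 ± 0.12 (SE, edgeR adjusted p = 0.00403). The beta-galactosidase genes Gal and Ect3, whose enzyme activity is used as a stain for senescence, were not called: Gal read 376, 334 and 393 CPM in WT and 188, 340.4 and 310.1 CPM in OKSM-Sen, and Ect3 7.63, 7.75 and 2.82 CPM in WT and 5.05, 11.2 and 4.28 CPM in OKSM-Sen. Their log2 fold changes were -0.40 ± 0.31 (SE, edgeR adjusted p = 0.397) and 0.17 ± 0.69 (SE, edgeR adjusted p = 0.884).

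Of 11 fly relatives of the reprogramming factors 2 were higher (18.2%, near the 15.7% of all genes), 3 were lower (27.3%, against 13.3%) and the others were not called. The Sox gene Sox14, a target of the steroid hormone ecdysone, read 36.4, 31.4 and 44.0 CPM in WT and 71.0, 66.6 and 79.2 CPM in OKSM-Sen and rose by a log2 of 0.96 ± 0.13 (SE, edgeR adjusted p = 0.00141). Together with Sox21a it rose while Myc and Max fell. The eye color gene white (w), a marker that UAS constructs commonly carry, read 51.1, 38.7 and 58.0 CPM in WT and 71.2, 87.0 and 71.2 CPM in OKSM-Sen and rose by a log2 of 0.63 ± 0.16 (SE, edgeR adjusted p = 0.0164).

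Immune effectors rose from very low levels. Of 12 antimicrobial peptide genes 8 were higher (66.7%, against 15.7% of all genes) and none was lower. The median was 1.91, which is far above the 0.02 of all genes. DptA, a diptericin against Gram-negative bacteria, read 0.191, 0.826 and 0.796 CPM in WT and 19.4, 16.7 and 18.9 CPM in OKSM-Sen. It rose by a log2 of 4.90 ± 0.88 (SE, edgeR adjusted p = 0.00506), its paralog DptB by 2.94 ± 0.67 (SE, edgeR adjusted p = 0.0135), drosocin (Dro) by 3.07 ± 0.56 (SE, edgeR adjusted p = 0.00397) and metchnikowin (Mtk) by 2.00 ± 0.50 (SE, edgeR adjusted p = 0.0170). The number called was 4 with WT replicate 1 left out, 4 with WT replicate 2 left out and 5 with OKSM-Sen replicate 2 left out. Of 30 components of the Toll and Imd pathways 5 were higher (16.7%) and 3 lower (10.0%), close to the 15.7% and 13.3% of all genes. PGRP-LB, an enzyme that destroys peptidoglycan and dampens the Imd response, was at 103, 117 and 135 CPM in WT and 221, 244 and 229 CPM in OKSM-Sen and rose by a log2 of 0.97 ± 0.17 (SE, edgeR adjusted p = 0.00327), and the receptor PGRP-SD rose by 1.49 ± 0.33 (SE, edgeR adjusted p = 0.0103). Tab2, of the kinase complex that carries the Imd signal, had a log2 fold change of -0.34 ± 0.07 (SE, edgeR adjusted p = 0.00550). The number of Toll and Imd components called higher was 2 with WT replicate 1 left out, 3 with WT replicate 2 left out and 2 with OKSM-Sen replicate 1 left out. Of 18 septate junction genes, which seal the epithelium, 4 were higher (22.2%, against 15.7% of all genes) and none lower. Tsp2A, a gut junction protein, had a log2 fold change of 0.52 ± 0.14 (SE, edgeR adjusted p = 0.0263), with an adjusted p of 0.105 with WT replicate 2 left out, and the number was 1 with WT replicate 1 left out, 0 with WT replicate 2 left out, 8 with WT replicate 3 left out, 2 with OKSM-Sen replicate 2 left out and 2 with OKSM-Sen replicate 3 left out.

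Other genes stood out by their p or by the size of their change. Those with the smallest p among genes called higher included CG10559, at 4.32, 4.38 and 6.06 CPM in WT and 73.0, 77.9 and 67.9 CPM in OKSM-Sen, for a log2 fold change of 3.89 ± 0.19 (SE, edgeR adjusted p = 2.15e-06), and Ipk2, an inositol phosphate kinase, at 23.3, 19.8 and 20.4 CPM in WT and 62.0, 48.3 and 60.5 CPM in OKSM-Sen, for a log2 fold change of 1.43 ± 0.12 (SE, edgeR adjusted p = 1.10e-04). The glycosyltransferase beta4GalNAcTA rose by a log2 of 1.35 ± 0.11 (SE, edgeR adjusted p = 1.05e-04), and slit (sli), the secreted ligand of Robo receptors, read 41.4, 43.7 and 47.5 CPM in WT and 74.3, 82.1 and 85.8 CPM in OKSM-Sen and rose by 0.87 ± 0.08 (SE, edgeR adjusted p = 1.36e-04). Among genes called lower, the D-amino acid oxidase Daao2 was at 32.0, 29.4 and 33.2 CPM in WT and 10.1, 9.16 and 10.0 CPM in OKSM-Sen, for a log2 fold change of -1.69 ± 0.10 (SE, edgeR adjusted p = 6.92e-06). PH4alphaPV, a prolyl hydroxylase subunit, read 25.4, 24.3 and 27.6 CPM in WT and 6.31, 5.32 and 4.94 CPM in OKSM-Sen, for a log2 fold change of -2.22 ± 0.21 (SE, edgeR adjusted p = 1.53e-04), and the arginine synthesis enzyme Ass 369, 344 and 338 CPM in WT and 161, 181 and 181 CPM in OKSM-Sen, for a log2 fold change of -1.01 ± 0.10 (SE, edgeR adjusted p = 2.12e-04). Ttd14 had a log2 fold change of -0.82 ± 0.08 (SE, edgeR adjusted p = 1.53e-04).

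The largest falls included genes known from cells outside the midgut. Akh, the adipokinetic hormone of the corpora cardiaca, a gland beside the front end of the gut, read 10.7, 0.762 and 22.8 CPM in WT and 0 in all 3 OKSM-Sen libraries. With a floor of 3 counts over the OKSM-Sen group it was at least 192-fold lower than the WT mean and at least 12.8-fold lower than the lowest WT library, and it was called (adjusted p = 0.00786), but not when only the 6 libraries compared were fitted (adjusted p = 0.138). WT itself varied widely, from 0.762 to 22.8 CPM. Cpr49Ab, a cuticle protein gene, was at 29.6, 2.92 and 0.551 CPM in WT and 0.0601, 0.320 and 0.0549 CPM in OKSM-Sen, with most WT reads in replicate 1. Its log2 fold change was -6.22 ± 1.49 (SE, edgeR adjusted p = 0.0173), and -3.55 without WT replicate 1. It was not called when only the 6 libraries compared were fitted (adjusted p = 0.106) or without both relabelled libraries (adjusted p = 0.101). Arr1, an arrestin best known from photoreceptors, read 6.17, 4.25 and 4.65 CPM in WT and 0.721, 0.449 and 0.110 CPM in OKSM-Sen, for a log2 fold change of -3.55 ± 0.51 (SE, edgeR adjusted p = 0.00144). Diedel3, of the Diedel family of secreted proteins, was abundant in WT, at 946, 748 and 824 CPM in WT and 18.5, 101 and 64.0 CPM in OKSM-Sen, and had a log2 fold change of -3.78 ± 0.93 (SE, edgeR adjusted p = 0.0208). The UDP-glycosyltransferase Ugt35E1 read 13.1, 11.8 and 7.53 CPM in WT and 0.481, 3.01 and 0.933 CPM in OKSM-Sen, for a log2 fold change of -2.88 ± 0.52 (SE, edgeR adjusted p = 0.00403). Sgp, at 3.37, 12.4 and 4.29 CPM in WT and 0.120, 0 and 1.65 CPM in OKSM-Sen, had a log2 fold change of -3.45 ± 1.22 (SE, edgeR adjusted p = 0.0734), with an adjusted p of 0.224 with WT replicate 2 left out, 0.182 with OKSM-Sen replicate 1 left out and 0.130 with OKSM-Sen replicate 2 left out and a log2 fold change of -6.59 without OKSM-Sen replicate 3. Of the unnamed genes, CG9825 was at 99.5, 93.9 and 69.8 CPM in WT and 0.421, 2.05 and 1.32 CPM in OKSM-Sen, for a log2 fold change of -6.12 ± 0.79 (SE, edgeR adjusted p = 0.00144). CG14075 read 7.56, 0.826 and 14.9 CPM in WT and 0, 0.0641 and 0.110 CPM in OKSM-Sen, for a log2 fold change of -6.86 ± 1.43 (SE, edgeR adjusted p = 0.0135), and CG11893 had a log2 fold change of -6.63 ± 0.49 (SE, edgeR adjusted p = 9.90e-05). In the other direction CG13313 rose by a log2 of 3.99 ± 0.33 (SE, edgeR adjusted p = 9.88e-05) and the spz4 gene by 4.17 ± 0.39 (SE, edgeR adjusted p = 1.53e-04). CG32857, at 2.61, 0 and 0.429 CPM in WT and 42.7, 37.7 and 4.56 CPM in OKSM-Sen, had a log2 fold change of 4.8 ± 1.63 (SE, edgeR adjusted p = 0.0673), with an adjusted p of 0.185 with WT replicate 2 left out, 0.149 with WT replicate 3 left out, 0.139 with OKSM-Sen replicate 1 left out and 0.107 with OKSM-Sen replicate 2 left out.

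Set against either construct alone, far fewer genes differed, in comparisons that share the OKSM-Sen libraries with the comparison against WT. OKSM-Sen differed from OKSM in 63 genes (0.672%), 25 higher (0.267%) and 38 lower (0.405%), and from Sen in 52 genes (0.555%), 44 higher (0.469%) and 8 lower (0.0853%). A gene that was called against WT and not against OKSM or Sen is not thereby shown to be equal to them. GstD9 had log2 fold changes of 4.97 ± 0.20 (SE, edgeR adjusted p = 4.32e-07) against WT, 0.47 ± 0.16 (SE, edgeR adjusted p = 0.315) against OKSM and 0.27 ± 0.16 (SE, edgeR adjusted p = 0.592) against Sen. RpL5 had log2 fold changes of -0.96 ± 0.13 (SE, edgeR adjusted p = 9.66e-04), -0.21 ± 0.12 (SE, edgeR adjusted p = 0.602) and -0.20 ± 0.12 (SE, edgeR adjusted p = 0.591) in the same order, and upd3 2.76 ± 0.32 (SE, edgeR adjusted p = 6.72e-04), 0.40 ± 0.29 (SE, edgeR adjusted p = 0.682) and -0.20 ± 0.29 (SE, edgeR adjusted p = 0.846). Among the genes already named that did differ from OKSM alone, Ipk2 read 27.4, 28.8 and 29.5 CPM in OKSM and was higher in OKSM-Sen by a log2 of 0.99 ± 0.12 (SE, edgeR adjusted p = 0.0104). For beta4GalNAcTA, at 52.4, 54.6 and 59.0 CPM in OKSM, the log2 difference was 0.78 ± 0.11 (SE, edgeR adjusted p = 0.0171). Mondo, a sugar-sensing transcription factor chosen after its values were seen, read 172, 167 and 99.98 CPM in WT, 89.0, 108 and 87.5 CPM in OKSM, 181, 258 and 224 CPM in Sen and 253, 229 and 279 CPM in OKSM-Sen. It was higher in OKSM-Sen than in OKSM by a log2 of 1.42 ± 0.20 (SE, edgeR adjusted p = 0.0171) and than in WT by 0.79 ± 0.20 (SE, edgeR adjusted p = 0.0188). These 3 calls against OKSM held when each OKSM or OKSM-Sen library was left out. That of beta4GalNAcTA was lost when only the 6 libraries compared were fitted (adjusted p = 0.127) and without both relabelled libraries (adjusted p = 0.146), and that of Mondo without the latter (adjusted p = 0.166). For cnn, at 20.9, 19.6 and 19.0 CPM in OKSM, the log2 difference was 0.77 ± 0.13 (SE, edgeR adjusted p = 0.0361), with an adjusted p of 0.109 with OKSM replicate 2 left out, 0.112 with OKSM replicate 3 left out and 0.148 with OKSM-Sen replicate 3 left out. GstD8 was above OKSM by a log2 of 1.00 ± 0.18 (SE, edgeR adjusted p = 0.0480), with an adjusted p of 0.130 with OKSM replicate 1 left out, 0.136 with OKSM replicate 2 left out, 0.103 with OKSM-Sen replicate 2 left out and 0.168 with OKSM-Sen replicate 3 left out. Against Sen alone, several ER genes differed, and none of these calls held without each single library. Hsc70-3, at 659.5, 637 and 649 CPM in Sen, was higher in OKSM-Sen by a log2 of 0.80 ± 0.12 (SE, edgeR adjusted p = 0.0291), with an adjusted p of 0.111 with Sen replicate 2 left out, 0.138 with Sen replicate 3 left out and 0.106 with OKSM-Sen replicate 3 left out. Gp93 was higher by a log2 of 0.79 ± 0.14 (SE, edgeR adjusted p = 0.0534), with an adjusted p of 0.164 with Sen replicate 2 left out, 0.209 with Sen replicate 3 left out, 0.135 with OKSM-Sen replicate 2 left out and 0.167 with OKSM-Sen replicate 3 left out. CaBP1 and Sil1 were higher than in Sen by a log2 of 0.55 ± 0.11 (SE, edgeR adjusted p = 0.0834) and 0.88 ± 0.18 (SE, edgeR adjusted p = 0.0925), with an adjusted p for CaBP1 of 0.241 with Sen replicate 2 left out, 0.234 with Sen replicate 3 left out, 0.130 with OKSM-Sen replicate 1 left out, 0.242 with OKSM-Sen replicate 2 left out and 0.179 with OKSM-Sen replicate 3 left out, and for Sil1 of 0.151 with Sen replicate 1 left out, 0.169 with Sen replicate 2 left out, 0.318 with Sen replicate 3 left out, 0.197 with OKSM-Sen replicate 1 left out, 0.199 with OKSM-Sen replicate 2 left out and 0.273 with OKSM-Sen replicate 3 left out. HIP-R, a cochaperone of Hsp70 chosen after its values were seen, read 57.1, 55.9 and 56.2 CPM in WT, 39, 38.6 and 45 CPM in OKSM, 50.7, 39.2 and 48.1 CPM in Sen and 70.6, 65.7 and 69.7 CPM in OKSM-Sen. It was above OKSM by a log2 of 0.75 ± 0.10 (SE, edgeR adjusted p = 0.0125), with an adjusted p of 0.138 without both relabelled libraries, above Sen by 0.58 ± 0.10 (SE, edgeR adjusted p = 0.0466), with an adjusted p of 0.111 with Sen replicate 2 left out, 0.138 with Sen replicate 3 left out, 0.124 with OKSM-Sen replicate 1 left out and 0.173 with OKSM-Sen replicate 3 left out, and above WT by 0.28 ± 0.10 (SE, edgeR adjusted p = 0.0624), with an adjusted p of 0.125 with WT replicate 1 left out, 0.155 with WT replicate 2 left out, 0.105 with WT replicate 3 left out, 0.155 with OKSM-Sen replicate 1 left out, 0.103 with OKSM-Sen replicate 2 left out and 0.152 with OKSM-Sen replicate 3 left out. Without OKSM-Sen replicate 3 and Sen replicate 3, the libraries whose labels had been exchanged, 8 genes differed from OKSM and 1 from Sen.

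**Figure D5:**
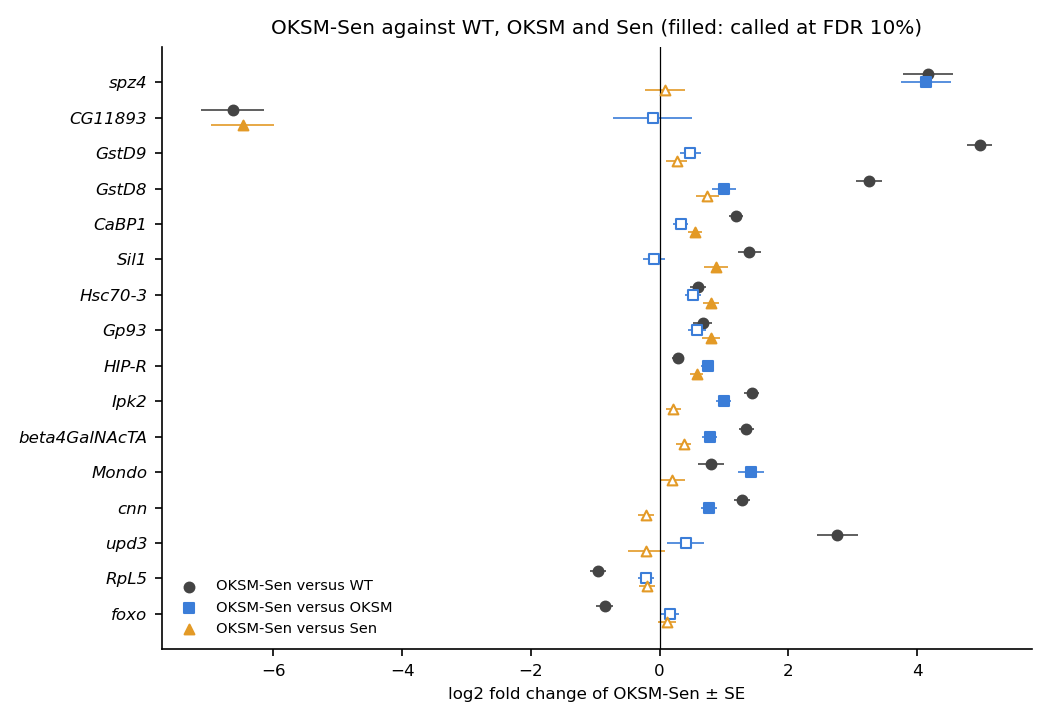
Log2 fold change of OKSM-Sen (x axis, point with its standard error, filled where called) for 16 genes (y axis) against WT, OKSM and Sen, the 3 comparisons sharing the OKSM-Sen libraries. For GstD9, upd3 and RpL5 the points against OKSM and Sen lie closer to 0 than those against WT, spz4 lies far from 0 against OKSM and CG11893 against Sen, and Ipk2, cnn and Mondo lie above OKSM and the ER chaperones above Sen.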

How the data were processed

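Midgut RNA-seq reads were aligned with STAR 2.7.1a and counted per gene with RSEM 1.3.1 by the authors, who deposited expected counts beside TPM and FPKM. The submitters' processing notes name the build dm6, and no source used here gives the strand setting. Only expected counts were used, rounded to whole numbers. TPM, FPKM and the 11 files of the ubiquitous model were not used. Samples were grouped by their current labels. Symbols and coordinates came from the BDGP6.54 annotation, which held 17587 of 17714 gene IDs.

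After removal of 390 rRNA, snoRNA and snRNA genes, as in the study, the 9374 genes with a mean of 10 or more reads over the 12 libraries were fitted in 1 model with a term per group (edgeR 4.0.16 in R 4.3.3, TMM, robust quasi-likelihood test). Benjamini-Hochberg adjustment ran over all genes tested, at an FDR of 10%. CPM used TMM-scaled library sizes. Tables were joined with Python 3.11.15, pandas 2.3.3 and numpy 2.4.6. DESeq2 1.42.0 was an alternative. No replicate pair was a duplicate, with a chi-square per gene of 22.3 to 122. On simulated data, in which 200 of 9374 genes were changed, edgeR called 66 of 100 genes given a log2 difference of 1 and 86 of 100 given one of 2 in OKSM-Sen versus WT, and 18 unchanged genes. In the data a far larger share of genes was called (29.0%), so the recovery there may differ. A group at 0 was given a floor of 3 counts, which covers counting error only.

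The 46 lists, 12 of them cell type markers, and the comparison itself were chosen with earlier results of these data known. Genes were named as the 8 largest rises and falls and the 6 smallest p per direction among genes without overlap and with 5 CPM or more in the higher group, up to 4 called members per list, 3 CG genes per direction under the same conditions and a few chosen beforehand by their role. Other genes were named after their values were seen. A few genes that the rule names are not reported here. Alternatives were other normalizations and tests, other filters, only the 6 libraries compared, a replicate block, an FDR of 5% and leaving out libraries.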

Additional observations from a re-analysis of the deposited data

How the results depend on the processing

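Against WT, 2718 genes were called, and between 2430 and 2838 with another normalization, filter or test, with only the 6 libraries compared or with a replicate block, and 1894 at an FDR of 5%. The share of calls that were higher was 54.3% with TMM, 50.5% with DESeq2 size factors and 48.3% with upper-quartile scaling. Without OKSM-Sen replicate 3 and Sen replicate 3 the number was 1639, and it ran from 1620 to 2887 when each replicate was left out. Against OKSM, 63 genes were called, 274 with DESeq2, 40 with only the 6 libraries compared, 37 at an FDR of 5%, 8 without the relabelled libraries and 17 to 46 without each replicate. Against Sen, 52 were called, and 277, 28, 25, 1 and 5 to 64 in the same order. The cause of these shifts was not tested.

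Replicate numbers did not pair the samples: deviations from the group means correlated at 0.25, -0.10 and 0.02 between WT and OKSM-Sen libraries of the same number, and not every sample correlated best with its own number. With the number as a block, 2531 genes were called against WT, 61 against OKSM and 42 against Sen.

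Of 206 genes named, 199 were called against WT, and 134 of these calls held under every setting in which the gene was tested. No direction reversed among them. The settings that lost most calls were those without WT replicate 2 (53), without the relabelled libraries (50) and without OKSM-Sen replicate 3 (34).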

Other observations

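A pair of neighbouring genes on chromosome arm 2R, chosen after their values were seen, were called higher in OKSM-Sen than in WT, OKSM and Sen, but the calls against OKSM and Sen did not hold under every setting. CG15236 lies at positions 6828356 to 6838360 and read 0.191, 0.127 and 0.0612 CPM in WT, 0.356, 0.206 and 0.0623 CPM in OKSM, 0.409, 0.0586 and 0.355 CPM in Sen and 3.49, 1.86 and 9.39 CPM in OKSM-Sen. Its log2 fold change was 5.21 ± 0.82 (SE, edgeR adjusted p = 0.00220) against WT, 4.54 ± 0.78 (SE, edgeR adjusted p = 0.0405) against OKSM and 4.14 ± 0.74 (SE, edgeR adjusted p = 0.0534) against Sen. The call against OKSM was lost without OKSM replicate 2 (adjusted p of 0.124), OKSM replicate 3 (0.125) or OKSM-Sen replicate 3 (0.148), and the call against Sen without Sen replicate 2 (0.146), Sen replicate 3 (0.195) or OKSM-Sen replicate 3 (0.173).

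The long noncoding RNA gene lncRNA:CR44442, at positions 6820560 to 6822596, read 0.0636, 0.254 and 0.184 CPM in WT, 0 in all 3 OKSM libraries, 0.0585, 0.351 and 0.0710 CPM in Sen and 2.59, 1.73 and 8.24 CPM in OKSM-Sen. Its log2 fold change against WT was 4.59 ± 0.84 (SE, edgeR adjusted p = 0.00641). Against Sen the log2 fold change was 4.61 ± 0.84 (SE, edgeR adjusted p = 0.0801), and that call was lost without Sen replicate 1 (adjusted p of 0.165), Sen replicate 2 (0.129), Sen replicate 3 (0.288), OKSM-Sen replicate 1 (0.118) or OKSM-Sen replicate 3 (0.210). Against OKSM, where no fold is given, the adjusted p of lncRNA:CR44442 was 0.0348, 0.218 with only the 6 libraries compared and 0.146 without the relabelled libraries. The calls of CG15236 and lncRNA:CR44442 against WT held when each WT or OKSM-Sen library was left out.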
